A study of Mus musculus with 8 samples.

Results

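The genes described here are Morc1, the other genes of the MORC family and the genes of the transposon silencing machinery that acts beside it. They were measured in newly generated mouse leukemia cells and in cells obtained after serial transplantations. The rule names 10 genes, namely Morc1, Morc2a, Morc3, Morc4, Mphosph8, Fam208a, Pphln1, Setdb1, Trim28 and Atrx. Of these, 9 were analysed among 12823 genes, all 9 passed the filter on low counts, and Morc4 was not analysed here. Morc1 was selected on its measured counts, which were higher in the aggressive cells of these same libraries, so its values are a description and carry no test. The other 8 were chosen as its family and silencing partners.

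Both groups are mouse bone marrow progenitors transduced with MLL-AF9, a fusion oncogene that causes acute myeloid leukemia (AML), together with GFP, and both were read as bulk RNA of GFP+ cells. The 4 libraries of new AML came from newly generated leukemia in sublethally irradiated recipients. The 4 libraries of aggressive AML came from cells that had passed through 5 serial transplantations, which the study describes as made from the new AML in non-irradiated immunologically normal mice. The comparison asks which transcripts differ between these groups. The labels call the libraries biological replicates without stating separate mice or separate leukemias, so p-values measure the spread between these libraries. The legend of the study's figure of these RNA data gives n = 4 per group and male mice. The mice were young adults, the age that the study's methods give for its experiments as a whole.

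Total counts lay between 7805544 and 9697777 per library, and expression is given as CPM, the read count of a gene scaled to a common library total. A single count was worth 0.103 to 0.130 CPM. Of 12494 genes tested, 2296 passed an adjusted p of 0.05 (18.4%), with 1018 higher in aggressive AML (8.15%) and 1278 lower (10.2%). The median log2 difference of all tested genes was 0.00. All 10 genes of the list of MLL-AF9 myeloid leukemia markers were analysed, with 4 called higher (Kit, Meis1, Elane and Ctsg) and 2 lower (Hoxa10 and Itgam), and their summed level was 6496 to 7152 CPM in new AML and 6597 to 8469 CPM in aggressive AML. A set of 4 Y-linked genes summed to between 2315 and 2574 counts in each new AML library. In each aggressive AML library they summed to 0, although the study describes the aggressive cells as derived from the new leukemia. Differences below that go with passage and those that go with this difference between the cells cannot be told apart. Nor can fewer cells of a type be told apart from less RNA per cell in bulk samples.

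MORC proteins are ATPases of the GHKL class that bind chromatin and keep it compact. Morc1 is best known from male germ cells, where it is needed to silence transposons. In other cells, routes of transposon silencing include KRAB zinc finger proteins that recruit Trim28 and the H3K9 methyltransferase Setdb1. They also include the HUSH complex of Mphosph8, Fam208a and Pphln1, which works with Setdb1 and Morc2a.

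Fam208a, now named Tasor, is the scaffold of the HUSH complex and the only one of the 8 partner genes that passed the test, and its promoter is therefore shown. The 250 bases before an annotated RefSeq start lie at chr14:27428584-27428833 on the plus strand of GRCm38.p6, inside a gene that is annotated from an earlier start at 27423674 to 27483555. The promoter of Gtsf1, a germ cell piRNA factor described further on, lies at chr15:103430428-103430677 on the minus strand. Both are written 5′ to 3′ with the dinucleotide CG, where DNA methylation is placed, in capitals.

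Fam208a: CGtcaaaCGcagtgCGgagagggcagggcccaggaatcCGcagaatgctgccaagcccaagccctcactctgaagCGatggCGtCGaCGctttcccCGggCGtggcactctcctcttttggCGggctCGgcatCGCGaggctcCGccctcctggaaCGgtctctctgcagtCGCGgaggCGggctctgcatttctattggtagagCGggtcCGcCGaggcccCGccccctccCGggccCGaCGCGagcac
Gtsf1: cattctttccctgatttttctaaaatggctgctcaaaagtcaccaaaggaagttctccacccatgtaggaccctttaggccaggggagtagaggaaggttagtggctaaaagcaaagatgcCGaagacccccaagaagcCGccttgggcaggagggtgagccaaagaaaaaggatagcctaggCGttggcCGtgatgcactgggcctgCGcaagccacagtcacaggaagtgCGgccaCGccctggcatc

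The dinucleotide CG occurred 27 times before the Fam208a start, and 8.56% of the 32851 RefSeq promoters of this length held at least as many. Gtsf1 had 7, which 46.3% of promoters reached, and the median promoter held 6. Among the 9 analysed members, 8 matched a promoter entry. Counts of CG in these ranged from 6 in Atrx to 46 at one of the starts of Pphln1, apart from a second Morc2a start with 0. At least 1 CG stood in 92.1% of all promoters. No methylation was measured here, and the counts describe the sequence alone.

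Morc1 went from a trace to a clear signal. The new AML libraries held 3, 7, 12 and 11 Morc1 reads, and the aggressive AML libraries held 229, 204, 223 and 224. On the CPM scale these were 0.308, 0.832, 1.34 and 1.23 in new AML and 27.6, 24.03, 28.9 and 25.5 in aggressive AML. The lowest aggressive library stood 18.0 times above the highest new one. Group means were 0.926 ± 0.466 (SD, n = 4) and 26.5 ± 2.16 (SD, n = 4), a 28.6-fold difference of means. The gene ranked 10 of 12494 by the size of its rise, a place that its choice already reflects.

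The aggressive libraries were close to each other in Morc1. Their coefficient of variation was 8.16%, where read counting alone would give 6.74%, while in new AML it was 50.3% against 34.8%. With 33 reads over all 4 new AML libraries, the lower level is the less certain end of the fold. Morc1 lies on chromosome 16 from 48431237 to 48630905 on the plus strand, and it overlaps the annotated gene Gm41458. Because the strand setting of the counting is not stated in the sources used here, reads of overlapping genes cannot be assigned with certainty.

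**Figure D1:**
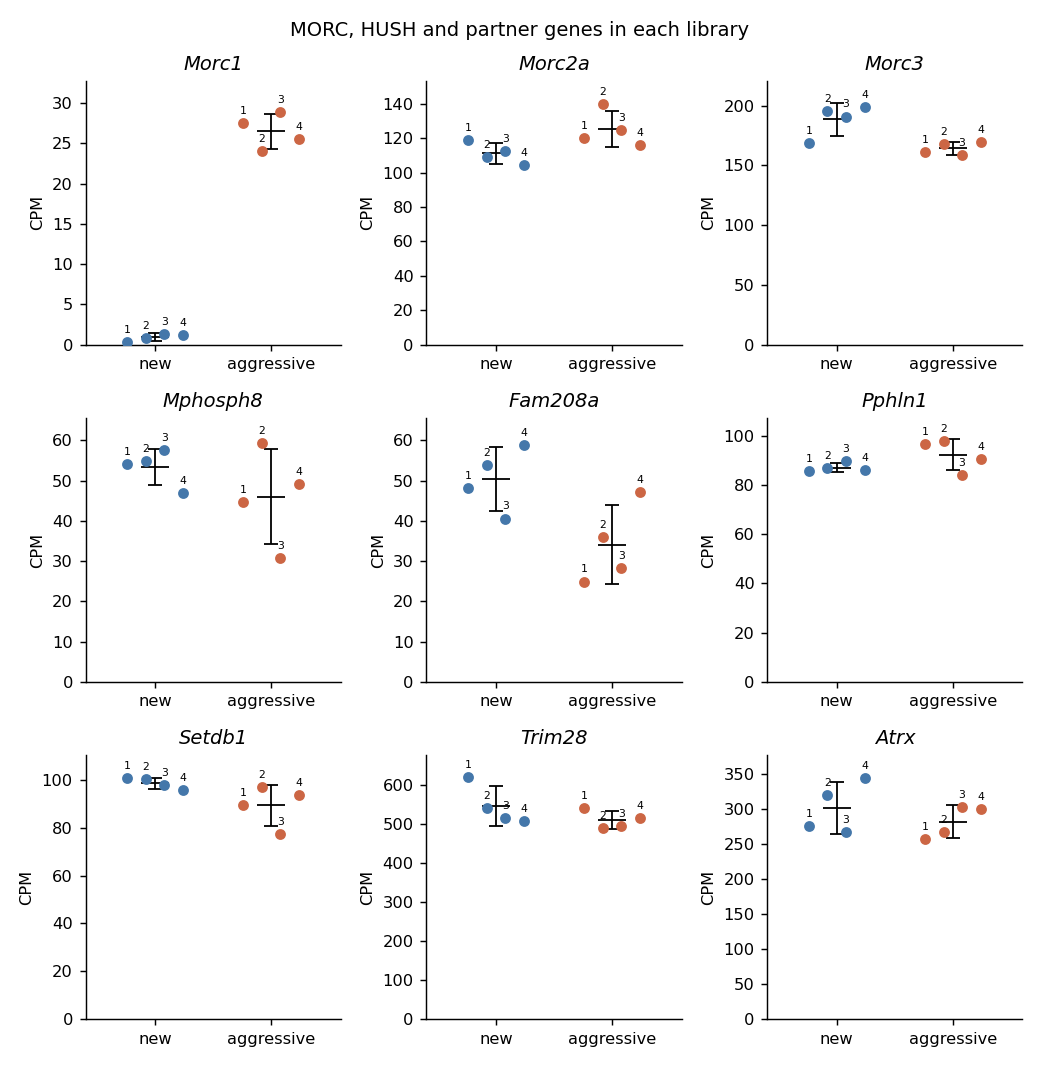
Level of each analysed member (CPM, linear axes from 0, a separate scale for each gene) in the 4 new AML and 4 aggressive AML libraries, with a numbered point for each library and black marks for the group mean ± SD. Morc1 moves from a mean of 0.926 to 26.5 CPM, while the points of the groups overlap for each of the other 8 genes.

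The other MORC genes were present in both groups at much higher levels and moved little. Morc2a, the HUSH-associated ATPase, stood at 119.1, 109.3, 112.5 and 104.5 CPM in new AML and 119.9, 140.1, 124.7 and 116.1 CPM in aggressive AML. The groups met between 116.1 and 119.1 CPM, and the log2 difference of 0.17 (SE 0.08, 95% interval −0.00 to 0.34) did not pass the test (edgeR, adjusted p = 0.165). Morc3, which binds H3K4 methylated histones through a CW domain and restrains endogenous retroviruses, stood at 168.5, 195.4, 190.9 and 198.8 CPM in new AML and 160.9, 168.2, 158.3 and 169.2 CPM in aggressive AML. Only the lowest new AML library reached into the range of the aggressive ones. The difference was −0.20 on the log2 scale (SE 0.07, interval −0.36 to −0.04) with an edgeR adjusted p of 0.0751, and it fell to 0.0360 without new AML replicate 1.

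Set against each other per length, the 3 MORC genes kept their order. With CPM divided by kilobases of annotated exon, Morc3 had 34.7 in new AML and 30.2 in aggressive AML, and Morc2a 17.3 and 19.5. Morc1 rose on this scale from 0.143 to 4.09. Morc1 made up 0.271 ± 0.133% of the summed level of the 3 genes in new AML (SD, n = 4). In aggressive AML its share was 7.62 ± 0.820% (SD, n = 4). The sum itself held 52.2 ± 1.71 CPM per kilobase in new AML and 53.8 ± 1.81 in aggressive AML. The share depends on the length used. Divided by the longest coding transcript, it was 0.462 ± 0.226% and 12.4 ± 1.27% (SD, n = 4 each). Morc1 therefore remained the smallest of the 3 in every library under both lengths.

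In the HUSH complex, Fam208a was lower in aggressive AML and its partners did not pass the test. Fam208a stood at 48.1, 53.97, 40.6 and 58.96 CPM in new AML and 24.9, 35.9, 28.2 and 47.1 CPM in aggressive AML. The groups overlapped through aggressive AML replicate 4, which lay above the lowest new AML library. Means were 50.4 ± 7.90 and 34.1 ± 9.85 CPM (SD, n = 4), a ratio of 0.675. The log2 difference was −0.56 (SE 0.17, interval −0.93 to −0.20), with an edgeR adjusted p of 0.0316.

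This call rests on few libraries. Leaving out 1 library at a time moved the edgeR adjusted p of Fam208a between 0.00383, without aggressive AML replicate 4, and 0.103, without new AML replicate 4. It passed in 2 of these 8 fits, and the log2 difference stayed between −0.75 and −0.44. It failed without new AML replicate 1 (0.0565), 2 (0.0868) or 4, and without aggressive AML replicate 1 (0.0953), 2 (0.0565) or 3 (0.0696). Fam208a overlaps Ccdc66 and Gm52095, and Ccdc66 stood at 21.5 and 23.0 CPM in the groups and did not pass (log2 0.10, edgeR adjusted p = 0.642).

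Mphosph8, the HUSH subunit that reads H3K9 methylation, stood at 54.2, 54.8, 57.7 and 47.03 CPM in new AML and 44.6, 59.3, 30.8 and 49.3 CPM in aggressive AML. The aggressive group spanned the range of the new one, from its lowest value in replicate 3 to its highest in replicate 2. The difference was −0.21 (SE 0.15, interval −0.53 to 0.11, edgeR adjusted p = 0.346), and it was −0.06 without aggressive AML replicate 3. Pphln1, which bridges the complex, ranged from 85.7 to 89.6 CPM and from 84.2 to 97.7 CPM (log2 0.09, interval −0.08 to 0.25, edgeR adjusted p = 0.476). The 3 HUSH genes summed to 187.8 to 195.7 CPM in new AML, and their sum spread from 143.3 to 192.8 CPM in aggressive AML, where replicate 3 was lowest. That library also had the largest mean distance from the others of its group, 1.17 on the log2 scale where the 8 libraries began at 0.936, and its part in the spread was not tested.

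Per kilobase of exon, Fam208a was the least abundant HUSH gene in both groups, at 3.70 in new AML and 2.50 in aggressive AML, while Pphln1 had 19.15 and 20.3 and Mphosph8 14.9 and 12.8. Morc1 and Fam208a changed places. By the longest coding transcript, Morc1 ran from 0.101 to 0.440 CPM per kilobase in new AML, below Fam208a at 5.35 to 7.77. In aggressive AML Morc1 ran from 7.89 to 9.49 and Fam208a from 3.29 to 6.21. On exon length the means crossed likewise, with 4.09 for Morc1 in aggressive AML.

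The shared silencing enzymes did not pass the test. Setdb1, which writes H3K9 trimethylation, was at 95.8 to 100.9 CPM in new AML and at 77.6 to 97.3 CPM in aggressive AML, with replicate 3 lowest (log2 −0.14, interval −0.32 to 0.04, edgeR adjusted p = 0.263). Trim28, the corepressor of KRAB zinc finger proteins, had the highest level per kilobase of exon, 131.1 and 122.4 (log2 −0.10, interval −0.26 to 0.07, edgeR adjusted p = 0.401). Atrx, the remodeler that places histone H3.3 in repeats, was at 267.3 to 345.0 CPM and at 257.3 to 303.2 CPM (log2 −0.10, interval −0.29 to 0.10, edgeR adjusted p = 0.490). These intervals leave room for changes of up to their bounds, and the missed threshold does not show equal levels. Other annotated genes overlap Morc3 (Gm30881), Mphosph8 (Gm16973), Pphln1 (Gm30181), Setdb1 (Cers2), Trim28 (Gm31649) and Atrx (Gm26020, Gm14853 and Gm23656).

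**Figure D2:**
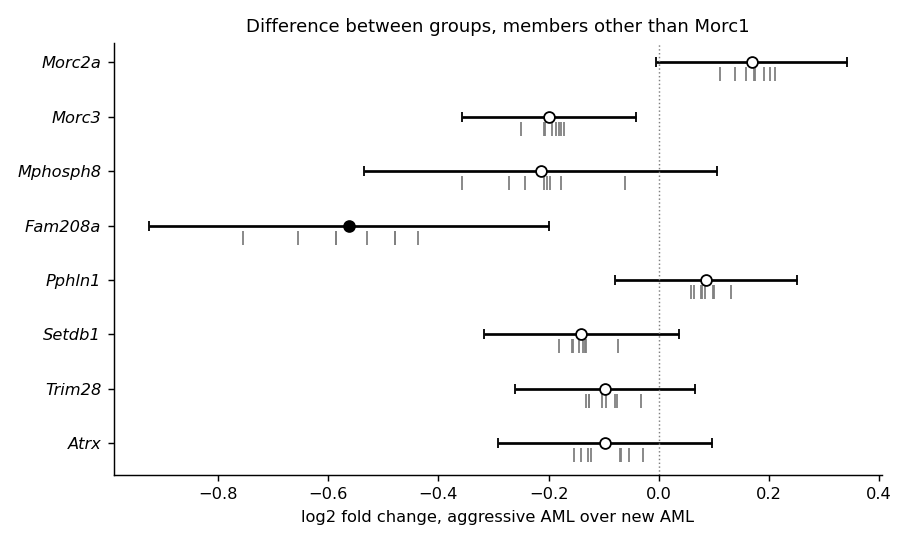
Log2 fold change, aggressive AML over new AML, of the 8 members other than Morc1, with bars for the 95% interval of the edgeR fit, grey ticks for the fits that leave out 1 library, and a filled point where the adjusted p is under 0.05. The filled point is Fam208a at −0.56, with ticks from −0.75 to −0.44.

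Counted together, 0 of the 8 genes other than Morc1 were called higher and 1 lower, or 12.5% called against 18.4% of all genes. At an unadjusted p of 0.05, edgeR gave 2 of the 8, where it gave 4070 of all 12494 tested genes. In 6 genes the difference was below 0 and in 2 above, with a median of −0.12. Their groups overlapped in every case, whereas 21.8% of all tested genes had groups that did not overlap (9.76% higher and 12% lower in aggressive AML).

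The genes that work with these members were read from lists, whose counts stand beside 8.15% of all tested genes called higher and 10.2% called lower. Among 4 analysed cofactors of HUSH and SETDB1, 0 were called higher and 1 lower, with a median log2 difference of −0.02. That gene was Zfp638, a zinc finger protein that recruits HUSH to unintegrated retroviral DNA. It stood at 124.2, 128.8, 130.4 and 141.3 CPM in new AML and 84.2, 95.5, 56.9 and 118.0 CPM in aggressive AML. Every aggressive library was below every new one. Zfp638 overlaps the annotated gene Gm5138. The log2 difference was −0.56 (SE 0.15, edgeR adjusted p = 0.0182), which became 0.0550 without new AML replicate 4 and 0.0516 without aggressive AML replicate 1. Atf7ip, the stabilising partner of Setdb1, had −0.20 (edgeR adjusted p = 0.261), and Fam208b, the paralog of Fam208a, 0.18 (0.290).

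The 7 analysed KRAB zinc finger genes had 0 calls in either direction by edgeR and a median of −0.02. An unadjusted p of 0.05 was reached in edgeR by 4070 of all 12494 tested genes and by 2 of these 7. One was Zfp809, which recognises the primer binding site of murine retroviruses. It went from 20.7 to 15.3 CPM on average (log2 −0.44, edgeR adjusted p = 0.0536). The other was Zfp708, which went from 3.303 to 1.43 CPM (log2 −1.17, edgeR adjusted p = 0.0665). DESeq2 called Zfp809 (adjusted p = 0.0447), limma called both (0.0463 and 0.0335), edgeR with the replicate number as a block called Zfp708 (0.0306), and edgeR called both without aggressive AML replicate 4 (0.0115 and 0.00784). The list of H3K9 methyltransferase genes and their cofactors Wiz and Zfp644 had 6 analysed genes and 0 calls by edgeR, DESeq2 or limma. Of these, 1 reached an unadjusted p of 0.05, and all 6 had differences below 0, from −0.21 to −0.01, with a median of −0.14.

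Of 8 analysed genes that remove H3K9 methylation, 1 was higher and 1 lower, with a median of −0.19. Jmjd1c, a jumonji demethylase family member, stood at 344.8, 339.2, 297.1 and 379.2 CPM in new AML and at 447.6, 444.6, 695.3 and 502.8 CPM in aggressive AML (log2 0.62, edgeR adjusted p = 0.00289). The groups did not overlap, and aggressive replicate 3 was highest. Jmjd1c overlaps Reep3, which was among the tested genes, and also Gm46228 and Gm26359. Phf8, an H3K9 demethylase that overlaps Gm24460, went from 69.2 to 55.2 CPM (log2 −0.32, edgeR adjusted p = 0.0411). The Phf8 call was lost in 6 of the 8 fits that leave out 1 library, all but those without new AML replicate 3 or aggressive AML replicate 4, with an adjusted p of up to 0.121 (without new AML replicate 1).

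Among 16 genes of HP1 proteins, histone H3.3, histone chaperones and heterochromatin remodelers, 3 were higher and 1 lower, with a median of −0.01. H3f3b, which encodes histone H3.3, went from 673.9 ± 65.0 to 942.1 ± 192.4 CPM (SD, n = 4, log2 0.48, edgeR adjusted p = 0.00986). Hira, the H3.3 chaperone of active genes, went from 85.9 to 104.5 CPM (log2 0.28, edgeR adjusted p = 0.0368), and Ubn1, its complex partner, from 179.1 to 148.4 CPM (log2 −0.27, 0.0329). Chaf1b, a subunit of the replication chaperone CAF-1, was called at 0.0494 (log2 0.36), a call lost in 7 of 14 alternatives, which include leaving out new AML replicate 2, 3 or 4 or aggressive AML replicate 1, 2 or 3, with an adjusted p of up to 0.146 (without new AML replicate 2). The Hira call was lost without new AML replicate 2 or 4 or aggressive AML replicate 1, 2 or 3, at up to 0.116 (without new AML replicate 4). The Ubn1 call was lost without new AML replicate 1, 2 or 4 or aggressive AML replicate 2 or 3, at up to 0.107 (without new AML replicate 2). Daxx, the partner that works with Atrx, had −0.25 (edgeR adjusted p = 0.12). Hira overlaps Gm15798 and Ubn1 overlaps Gm23483.

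**Figure D3:**
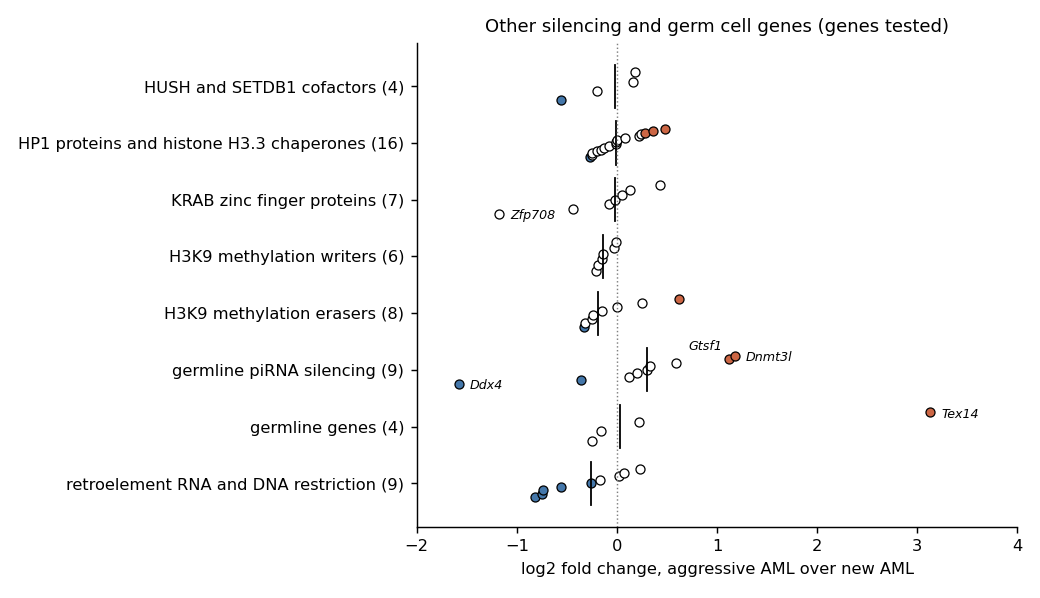
Log2 fold change, aggressive AML over new AML, of each tested gene of the lists, with a point for each gene, filled where the edgeR adjusted p is under 0.05, and a black line at the median of each list (number of genes in parentheses). The 5 genes beyond 1 in size are Tex14, Dnmt3l and Gtsf1 on the higher side and Ddx4 and Zfp708 on the lower side, of which Tex14 passed the low count filter through the aggressive AML libraries alone.

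Since Morc1 is known from germ cells, germline genes were read beside it. Of 25 listed genes of germline piRNA silencing, 11 were analysed and 9 tested, with 2 higher, 2 lower and a median of 0.30. Dnmt3l, the cofactor of de novo DNA methylation in germ cells, stood at 6.77, 6.18, 8.48 and 5.80 CPM in new AML and 17.2, 14.7, 16.8 and 12.97 CPM in aggressive AML. The groups did not overlap (log2 1.18, SE 0.17, edgeR adjusted p = 0.000244). Gtsf1, whose promoter is shown above, stood at 2.05, 2.62, 2.68 and 0.780 CPM and then at 3.37, 4.59, 5.31 and 4.44 CPM (log2 1.12, SE 0.33, edgeR adjusted p = 0.0280). Its groups did not overlap either, and its call was lost without new AML replicate 1 or 4 or aggressive AML replicate 2 or 3, at an adjusted p of up to 0.0615 (without new AML replicate 4).

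The germ cell genes did not move one way. Ddx4, the RNA helicase known as Vasa, stood at 16.1, 24.5, 14.9 and 26.3 CPM in new AML and fell to 6.14, 5.42, 7.39 and 8.31 CPM in aggressive AML (log2 −1.58, SE 0.21, edgeR adjusted p = 0.000108). Tdrd7, a tudor domain protein of germ granules, went from 31.3 to 24.4 CPM (log2 −0.36, edgeR adjusted p = 0.0303). The Tdrd7 call was lost without new AML replicate 3 or 4 or aggressive AML replicate 1, 2 or 4, at up to 0.0874 (without new AML replicate 4). Piwil2, a PIWI protein, had 1.34 and 2.04 CPM and did not pass (edgeR adjusted p = 0.286). A second list of 20 germ cell genes had 4 tested, of which 3 did not pass. The fourth, Tex14, needed for the bridges between germ cells, stood at 0.103, 0.713, 0.781 and 0.892 CPM in new AML and 4.94, 4.24, 8.29 and 4.55 CPM in aggressive AML (log2 3.13). It passed the low count filter through the aggressive group alone and so had to differ, for which reason its values are a description with no test. Tex14 also overlaps small nucleolar RNA genes. Dnmt3l overlaps Aire.

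**Figure D4:**
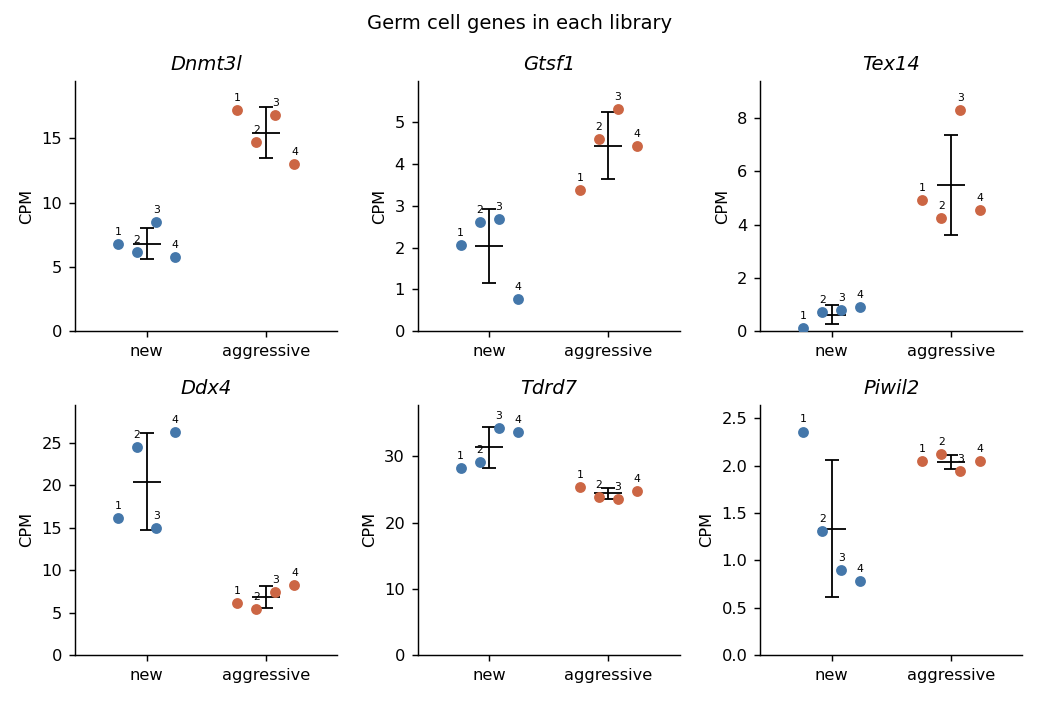
Level (CPM, linear axes from 0, a separate scale for each gene) of 6 germ cell genes in the 8 libraries, with a numbered point for each library and black marks for the group mean ± SD. Dnmt3l, Gtsf1 and Tex14 lie higher in all 4 aggressive AML libraries, Ddx4 and Tdrd7 lie lower in all 4, and the groups of Piwil2 overlap.

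A further line of defence acts on retroelement RNA and DNA after transcription, and here 5 of 9 genes were lower and 0 higher, with a median of −0.26, where 10.2% of all tested genes were lower and 8.15% higher. Samhd1, which depletes the nucleotides needed for reverse transcription, stood at 112.6, 138.7, 140.6 and 131.6 CPM in new AML and 68.8, 81.2, 84.5 and 78.2 CPM in aggressive AML (log2 −0.74, edgeR adjusted p = 6.16e-05). Trex1, a cytosolic DNA exonuclease, went from 40.4 ± 1.53 to 24.2 ± 1.91 CPM (SD, n = 4, log2 −0.74, edgeR adjusted p = 0.000139). Neither gene had overlapping groups. Adar, the editor of double-stranded RNA, went from 142.3 to 96.8 CPM (log2 −0.56, 0.00135). Mov10, an RNA helicase that restricts LINE elements, went from 24.6 to 13.95 CPM (log2 −0.82, edgeR adjusted p = 0.00886), and its groups overlapped through new AML replicate 2 at 15.6 CPM. Zc3hav1, an antiviral zinc finger protein, went from 171.4 to 143.5 CPM (log2 −0.26, 0.0248). The Zc3hav1 call was lost without new AML replicate 1, 2 or 3 or aggressive AML replicate 1 or 2, at up to 0.0833 (without aggressive AML replicate 1). Several of these genes respond to interferon. Adar overlaps Chrnb2 and Trex1 overlaps the readthrough gene Atrip-trex1.

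Genes listed as markers of other blood cells also differed between the groups. Whether their RNA came from the GFP+ leukemia cells or from other cells was not tested. Counts of markers called stand beside 10.2% of all tested genes called lower and 8.15% called higher. Of 10 neutrophil markers, 8 were lower. Among the 8 is Retnlg, which passed the low count filter through new AML and carries no test. The summed level of the neutrophil markers was 349.4 to 531.1 CPM in new AML and 190.6 to 240.7 CPM in aggressive AML. Of 5 tested macrophage markers, 2 were lower, with sums of 219.9 to 347.9 CPM and 98.2 to 145.8 CPM. Of 7 tested erythroid markers, 2 were lower, with sums of 28.4 to 101.9 and 10.6 to 54.2 CPM. Only 1 of 6 listed NK cell markers was analysed, Nkg7, and it was called higher. From the 7 listed T cell markers, 2 were tested and 1, Bcl11b, was called higher. The groups overlapped for Nkg7, for Bcl11b and for the summed level of the T cell markers. These lists are therefore too short to describe NK or T cell markers as a set. Only 1 of 5 listed B cell markers was tested, and it was not called. The part of these markers in the differences of the retroelement genes, of Fam208a and of Morc1 was not tested.

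Around Morc1 on chromosome 16, 9 other genes within 2 Mb were tested. Of these, 1 was called higher, where 8.15% of all tested genes were called higher, so this count does not set the region apart. The higher gene was Ift57, an intraflagellar transport protein 1068 kb away, at 179.2 ± 16.9 and 257.7 ± 14.5 CPM (SD, n = 4, log2 0.52, edgeR adjusted p = 0.000369). Retnlg, a resistin-like gene of neutrophils, was lower, at 4.28 and 0.554 CPM (log2 −2.93). It had at least 1 CPM in all 4 new AML libraries and in 1 aggressive AML library, so it passed the low count filter through the group where it was higher, and its values are given with no test. Retnlg was the nearest tested gene, and it is also in the neutrophil marker list above. Cd47, a receptor that inhibits phagocytosis, went from 594.6 to 691.9 CPM and did not pass (log2 0.22, edgeR adjusted p = 0.0538), though it did without aggressive AML replicate 4 (0.0416). The other tested neighbours, among them Dzip3 (log2 −0.17) and Bbx, did not pass either.

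**Figure D5:**
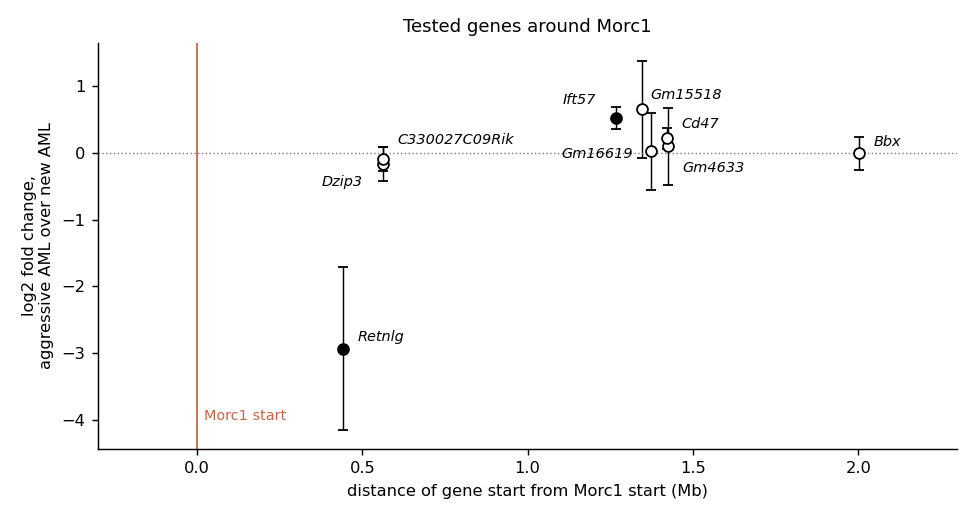
Log2 fold change, aggressive AML over new AML, of the 9 tested genes around Morc1 by the distance of their start from the Morc1 start (Mb), with bars for the 95% interval and filled points where the edgeR adjusted p is under 0.05. The filled points are Ift57 at 0.52 and Retnlg at −2.93. Retnlg passed the low count filter through the new AML libraries, so its point is a description with no test.

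The genes whose pattern over the 8 libraries was most like that of Morc1 were mostly unnamed transcripts. Likeness was the root mean square difference of log2(CPM + 1) after each gene was centred on its own mean. The closest was 9330111N05Rik at 0.397, with means of 0.650 and 19.4 CPM. Gm32639 followed at 0.402, with 0.312 and 22.9 CPM. Gm32333 (0.475), Klrb1b (0.537) and Gm33741 (0.583) came next, and each had at most 3 reads in any new AML library. Klrb1b, a lectin-like receptor gene of NK cells, averaged 8.24 CPM in aggressive AML. The shape that these genes share is the one by which Morc1 was chosen, so the likeness is a description.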

How the data were processed

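The authors purified polyadenylated RNA of GFP-positive cells, sequenced it from both ends, aligned reads to mm10 with HISAT2 and counted them with Rsubread (v2.12.3). They used edgeR (v3.40.2) for CPM, left out genes under 1 CPM and tested log2 CPM with limma. The gene annotation and strand setting are not given in the sources used here. The deposited file carries CPM in its name, yet its values are whole-number read counts whose totals differ between libraries, and they were used as counts. Columns of sample values that were not used numbered 0.

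Differences in counts were tested in edgeR (version 4.0.16, under R 4.3.3) by quasi-likelihood, with TMM scaling, the group as the only term, genes at 1 CPM or more in at least 4 of 8 libraries, and two-sided Benjamini-Hochberg adjusted p under 0.05 over all 12494 tested genes. Morc1 remained in the fit but its p is not given. DESeq2 (version 1.42.0), limma (version 3.58.1) on log2(CPM + 1), no filter, other scaling, a replicate block and leaving out each library were the alternatives. The procedure was tested on simulated data. Counting percentages cover counting error only.

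The members and lists were chosen with earlier results of these data known. By rule the text names every member, up to 4 examples a list with the largest log2 difference among the genes called, tested genes within 2 Mb of Morc1, and the 5 tested genes nearest to it in pattern. Other genes were named after their values were seen. Coordinates and promoters are those of RefSeq on GRCm38.p6, the build of mm10, and 97.5% of gene names matched it. Transcript lengths are from GENCODE.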

Additional observations from a re-analysis of the deposited data

Results flagged for a closer look

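Within the 56 groups of 4 libraries examined, 2 held a library far from the other 3, where chance alone gives about 1 in 20 groups. H3f3b stood at 771.2 CPM in new AML replicate 3, against 636.7 to 648.4 CPM in the others. Zc3hav1 stood at 131.9 CPM in aggressive AML replicate 1, against 146.3 to 148.0 CPM in the others. Neither gene is Morc1 or one of its partner genes in the rule.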

How the results depend on the processing

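Each difference of the 8 partner genes kept its direction under the 14 alternatives, and 105 of 112 values stayed on the same side of the threshold. Leaving out 1 library at a time gave 0 to 1 member called lower (0 in 5 of 8 fits) and 0 called higher, and without new AML replicate 1 the member called was Morc3 and not Fam208a. Over the same fits the genes called across the whole table ran from 633 to 1047 higher and from 833 to 1283 lower, with both minima without new AML replicate 2. Genes of the lists ran from 3 to 6 higher, against 7, and from 6 to 12 lower, against 10. The 7 include Tex14, whose values carry no test. The lowest counts came without aggressive AML replicate 3 (3 higher), and without new AML replicate 4 or aggressive AML replicate 1 or 2 (4 higher and 6 lower each). Neighbours of Morc1 called higher ran from 1 to 2, with 2 without aggressive AML replicate 4, and DESeq2 also gave 2. The 1 neighbour counted as lower in each fit was Retnlg, whose values carry no test. The log2 difference of Morc1 ran from 3.87 with limma to 5.07 without new AML replicate 3. The limma scale adds 1 to each CPM, which makes the log2 difference smaller where a level is near 1 CPM. Leaving out any aggressive AML library put Tex14 below the low count filter, so it left the count of list genes called higher in those fits. The cause of the other shifts was not tested.

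The replicate numbers were not taken to pair the libraries, since the deviations of libraries of the same number correlated at 0.0967, −0.0399, −0.0654 and 0.204. With the replicate block, 1003 genes were called higher and 1364 lower, with 0 members higher and 1 lower. It gave 7 list genes higher, among them Tex14, whose values carry no test, and 12 lower. Of the neighbours 1 was higher, and the 1 lower was Retnlg. Fam208a had an edgeR adjusted p of 0.00442 with this block. Levels near 1 CPM, such as Morc1 in new AML, rest on few reads and are imprecise.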
